A study of Homo sapiens with 21 samples.

Results

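The 9 genes described here set apart BT474 breast cancer cell pools resistant to trastuzumab plus pertuzumab (BT-TPR) from pools resistant to trastuzumab alone (BT-TR). NCMAP, GLYATL3, GPX8, ANXA1, UGT3A2 and PTPRM had lower RNA levels in the BT-TPR pools, and SLC44A5, HGD and EFS had higher levels there. The genes were chosen for that difference in these same libraries, so it is given as a description with no test. They are 9 of the 37355 genes in the count table, and all 9 were among the 17650 genes that passed the filter on low counts. Each BT-TPR pool was set against each BT-TR pool, and genes were ranked by the smallest of these 4 log2 differences. The ranked genes had to differ in all 4 comparisons, with at least 5 CPM (counts divided by normalized depth) over the pools and no overlap between the libraries of the classes. The 6 genes with lower levels were the first 6 of 204 on that list, where PTPRM, at -1.89, was the last one taken and BPIFB1, at -1.63, the next one left. The 3 genes with higher levels were the first 3 of 73, where EFS stood at 1.32 and PPP1R1B, the next gene, at 1.25.

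BT474 is an established human cell line from a breast cancer with extra copies of ERBB2, the gene of the receptor HER2. Trastuzumab and pertuzumab are antibodies that bind different domains of HER2, and pertuzumab covers the domain through which HER2 pairs with related receptors. RNA was sequenced from 21 libraries, 3 in each of 7 groups. The groups were BT-TPR1 and BT-TPR2, which resist both antibodies, BT-TR1 and BT-TR2, which resist trastuzumab, cells given 10 µg/mL of trastuzumab with 10 µg/mL of pertuzumab for 3 days, cells given 10 µg/mL of trastuzumab for 3 days, and untreated cells. All groups came from the BT474 line, and for the last 7 days before collection the pools received no antibody. The study asked how the RNA of resistant cells compares with that of sensitive cells with and without antibody. Each class of resistance was represented by 2 pools, which are its units, not the 6 libraries made from them. The labels do not say whether the 3 libraries of a group came from separate cultures. P-values and standard errors (SE) therefore measure only the spread between these libraries. The SE of a difference between classes leaves out the spread between the 2 pools of a class.

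Library totals ran from 7939270 to 21746391 counts. A count of 3, the floor used here, was worth 0.136 to 0.396 CPM, and intervals cover counting error only. In every group the deviations of replicate 1 from the group mean moved with the GC content of the gene, with correlations across genes of 0.449 to 0.773, against -0.732 to 0.12 in the other libraries. All 8 luminal epithelial markers, among them KRT8, GATA3 and ERBB2, reached 1 CPM in every group. Blood, endothelial and fibroblast markers were below 1 CPM except for VWF, CDH5 and COL1A1. Of 6 basal or myoepithelial markers, KRT5, KRT14, KRT17 and ACTA2 stayed at or below 0.233 CPM in every library. Summed over the 6 markers, mostly TP63 and OXTR, the level was 3.28 to 5.41 CPM in the BT-TPR libraries, 6.72 to 8.18 CPM in the BT-TR libraries, 6.13 to 7.86 CPM with both antibodies, 6.12 to 7.13 CPM with trastuzumab and 8.52 to 10.1 CPM in untreated cells. Between the BT-TPR and BT-TR libraries this sum differed in the same direction as the 6 genes with lower levels. In the BT-TR libraries the sum lay below untreated cells, where NCMAP, GLYATL3, UGT3A2 and PTPRM lay above them. The part of the sum in the difference of the 6 genes was not tested. In bulk libraries, fewer cells with a transcript and less of it per cell cannot be told apart.

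The 9 genes belong to no single pathway. GPX8, UGT3A2, GLYATL3 and HGD encode enzymes of redox chemistry, sugar conjugation, glycine conjugation and tyrosine breakdown. ANXA1, PTPRM and EFS encode proteins of membranes, cell contacts and tyrosine phosphorylation, through which HER2 signals. NCMAP and SLC44A5 encode membrane proteins named for myelin and for choline transport.

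The genes do not share a type of promoter by the 250 bases before the RefSeq start site of 8 of them (GRCh38.p14). For UGT3A2, PTPRM and EFS this window lay wholly inside the gene span from GENCODE that is given below. Which start site these cells use was not tested. The windows were searched on both strands for 8 motifs. NCMAP, PTPRM and EFS had CpG-rich windows, defined by a GC content above 50% and an observed-to-expected CpG ratio above 0.6, which 44.8% of 35116 promoters met. The windows of GLYATL3, GPX8, ANXA1, UGT3A2 and SLC44A5 were CpG-poor. Both kinds thus occurred among the genes lower and among the genes higher in the BT-TPR pools, and 5 windows are shown because they cover these combinations: NCMAP for lower and CpG-rich, GLYATL3 and ANXA1 for lower and CpG-poor, EFS for higher and CpG-rich, and SLC44A5 for higher and CpG-poor. Capitals mark matches, on either strand, to the GC box with the letters GGGCGG, to the CCAAT box, to the TATA box with the letters TATAAA and to the SNAI-type E-box with the letters CAGGTG.
NCMAP (chr1:24555837-24556086, plus strand): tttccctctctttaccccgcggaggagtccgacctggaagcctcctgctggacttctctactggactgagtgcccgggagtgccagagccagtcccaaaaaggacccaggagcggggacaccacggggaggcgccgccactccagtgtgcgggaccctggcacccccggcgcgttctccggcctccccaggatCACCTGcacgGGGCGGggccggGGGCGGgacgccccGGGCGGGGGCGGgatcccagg
GLYATL3 (chr6:49499673-49499922, plus strand): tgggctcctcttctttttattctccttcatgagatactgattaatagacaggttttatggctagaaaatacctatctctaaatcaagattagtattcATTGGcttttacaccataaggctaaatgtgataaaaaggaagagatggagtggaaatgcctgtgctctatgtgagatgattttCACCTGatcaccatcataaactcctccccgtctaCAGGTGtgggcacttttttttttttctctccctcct
ANXA1 (chr9:73151615-73151864, plus strand): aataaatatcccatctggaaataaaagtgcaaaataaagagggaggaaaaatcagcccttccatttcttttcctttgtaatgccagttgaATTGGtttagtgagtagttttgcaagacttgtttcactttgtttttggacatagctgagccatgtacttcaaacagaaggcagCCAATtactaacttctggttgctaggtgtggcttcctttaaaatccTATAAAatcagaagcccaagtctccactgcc
EFS (chr14:23365173-23365422, minus strand): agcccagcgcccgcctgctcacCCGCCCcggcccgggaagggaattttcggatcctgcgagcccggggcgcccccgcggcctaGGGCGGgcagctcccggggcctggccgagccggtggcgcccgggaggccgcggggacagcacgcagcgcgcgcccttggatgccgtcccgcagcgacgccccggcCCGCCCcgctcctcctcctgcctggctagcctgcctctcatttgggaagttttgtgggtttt
SLC44A5 (chr1:75611115-75611364, minus strand): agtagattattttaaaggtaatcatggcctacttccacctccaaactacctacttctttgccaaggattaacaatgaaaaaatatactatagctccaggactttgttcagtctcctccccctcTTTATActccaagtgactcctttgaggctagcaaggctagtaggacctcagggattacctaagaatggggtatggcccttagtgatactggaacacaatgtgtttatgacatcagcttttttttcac

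In these windows NCMAP held 4 GC boxes and 1 SNAI-type E-box, and EFS held 3 GC boxes. ANXA1 held a TATA box at positions -31 to -26 from the start and 2 CCAAT boxes. GLYATL3 held 1 CCAAT box and 2 SNAI-type E-boxes. SLC44A5 held the letters TATAAA only on the opposite strand, read as TTTATA, at positions -127 to -122. Of the windows not shown, that of PTPRM (chr18:7567066-7567315, plus strand) held 3 GC boxes, that of UGT3A2 (chr5:36066883-36067132, minus strand) held 1 CCAAT box, and that of GPX8 (chr5:55159921-55160170, plus strand) held none of the 8 motifs. No 2 matches overlapped. Among the 35116 promoters, GC boxes were present in 42.6%, CCAAT boxes in 32%, SNAI-type E-boxes in 17.5% and TATA boxes in 10.7%. The letters TGANTCA (AP-1, 6.57% of promoters), TGACGTCA (CRE, 1.65%), TGTTTAC (forkhead, 2.98%) and those of the palindromic estrogen response element (0.0399%) were in none of the 8 windows.

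**Figure D1:**
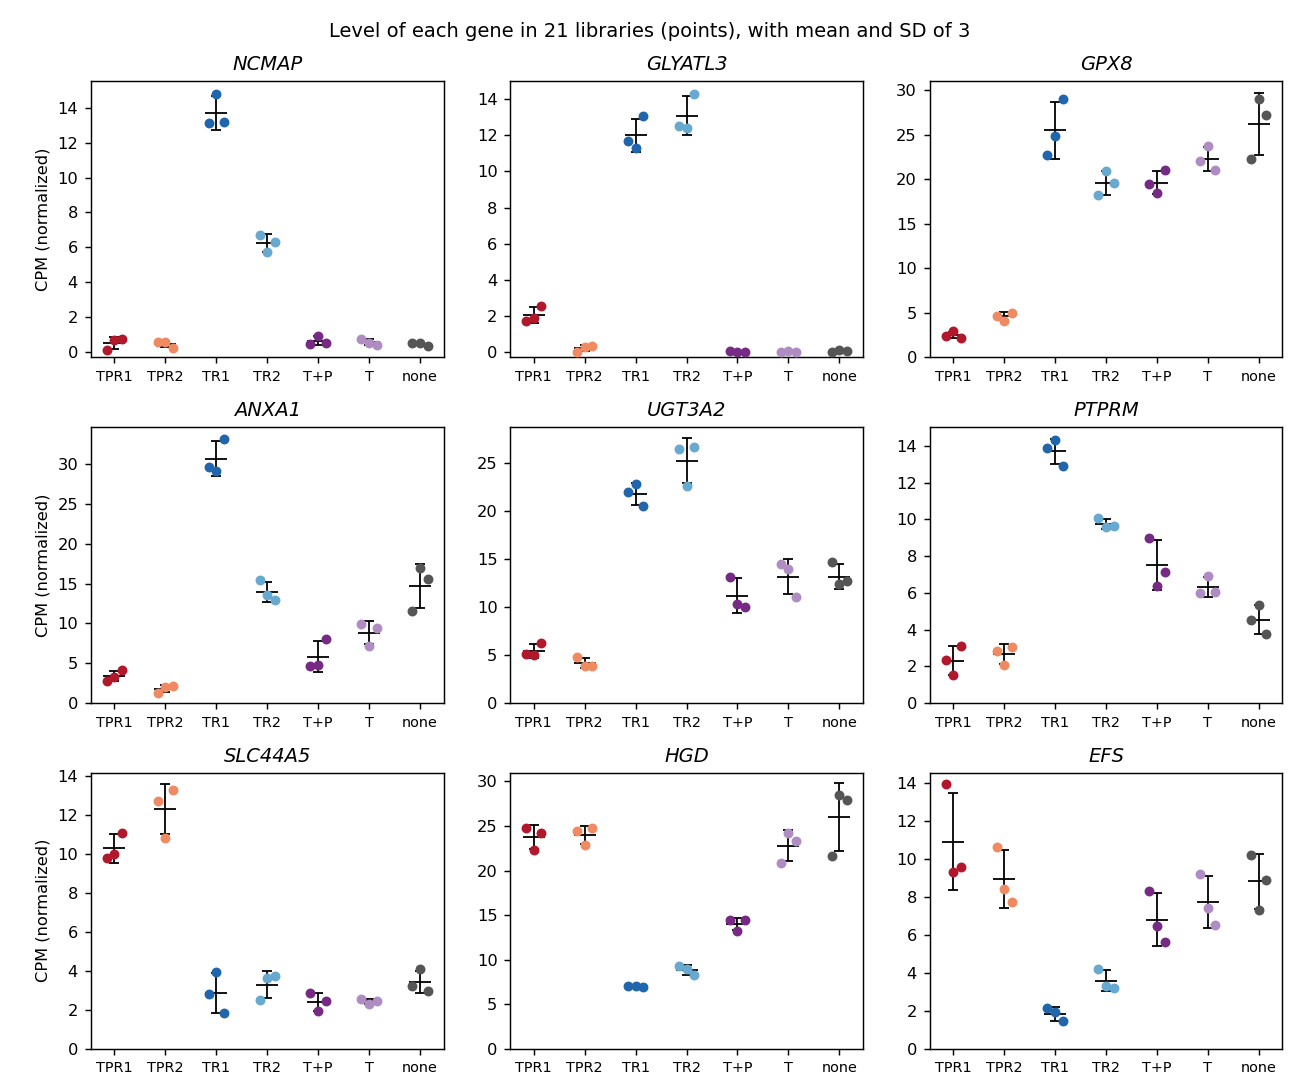
Normalized CPM of each of the 9 genes in 21 libraries. Points are libraries, horizontal lines are group means and bars are SDs of 3; TPR1, TPR2, TR1 and TR2 are the resistant pools, T+P is trastuzumab plus pertuzumab, T is trastuzumab and none is untreated. NCMAP and GLYATL3 were highest in the BT-TR pools, GPX8 was lowest in the BT-TPR pools, and HGD was lowest in the BT-TR pools and intermediate with both antibodies.

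Between the resistance classes, all 9 genes had 6 BT-TPR libraries clear of the 6 BT-TR libraries, as the choice required; over all tested genes 6.13% did. Set against untreated cells, the genes reached that separation in different ways. In 4 of them (GPX8, ANXA1, UGT3A2 and PTPRM) all 6 BT-TPR libraries lay below the 3 untreated libraries, against 13.3% of all tested genes. In 4 (NCMAP, GLYATL3, UGT3A2 and PTPRM) all 6 BT-TR libraries lay above untreated cells, against 13.6%. The BT-TR libraries lay below untreated cells for HGD and EFS (11.4% of all tested genes), and the BT-TPR libraries lay above them for SLC44A5 alone among the 9 (13.2%). Since the pool libraries chose the genes, nothing is read from these counts. The comparisons of the 4 pools with untreated cells share the same 3 untreated libraries.

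GPX8 (ENSG00000164294.13, chr5:55160118-55167071, plus strand, hg38) encodes a glutathione peroxidase family member of the endoplasmic reticulum membrane. Its level was 2.36, 2.89 and 2.18 CPM in BT-TPR1 and 4.65, 4.09 and 5.01 CPM in BT-TPR2, against 22.7, 24.9 and 29 CPM in BT-TR1 and 18.2, 20.9 and 19.6 CPM in BT-TR2. Untreated cells had 22.3, 29 and 27.2 CPM. The BT-TR pools thus stood close to untreated cells, BT-TR1 overlapping them, and both BT-TPR pools stood far below. Relative to untreated cells the log2 difference was -3.40 ± 0.15 in BT-TPR1 and -2.51 ± 0.14 in BT-TPR2 (± SE), against -0.04 ± 0.13 in BT-TR1 and -0.42 ± 0.13 in BT-TR2. With each library corrected for GC content, BT-TR1 lay -0.32 from untreated cells. The mean of GPX8 over the BT-TPR pools lay -2.73 ± 0.10 from the mean of the BT-TR pools on the log2 scale. The gene lies inside CDC20B on the opposite strand, and since the strand setting of the counting is not stated, reads of the 2 genes cannot be told apart where they overlap. CDC20B itself had at most 0.0742 CPM in any library.

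UGT3A2 (ENSG00000168671.9, chr5:36035017-36071358, minus strand) encodes a UDP-glycosyltransferase, an enzyme that attaches sugars to small lipophilic molecules. It had 5.12, 4.97 and 6.28 CPM in BT-TPR1 and 4.83, 3.86 and 3.89 CPM in BT-TPR2, against 22, 22.9 and 20.6 CPM in BT-TR1 and 26.5, 22.6 and 26.7 CPM in BT-TR2. In untreated cells it had 14.7, 12.4 and 12.7 CPM. Untreated cells lay between the classes without overlap on either side. On the log2 scale it differed from untreated cells by -1.28 ± 0.15 in BT-TPR1 and -1.66 ± 0.15 in BT-TPR2, against 0.72 ± 0.14 in BT-TR1 and 0.93 ± 0.14 in BT-TR2. Between the class means it was -2.30 ± 0.11.

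GLYATL3 (ENSG00000203972.9, chr6:49499958-49527047, plus strand) encodes a member of the glycine N-acyltransferase family, which joins acyl groups to glycine. It had 1.72, 1.89 and 2.56 CPM in BT-TPR1 and 0, 0.279 and 0.313 CPM in BT-TPR2, against 11.7, 11.3 and 13.1 CPM in BT-TR1 and 12.5, 12.4 and 14.3 CPM in BT-TR2. Untreated cells had 0, 2 and 1 counts, so the gene passed the filter through the pools. In counts, BT-TPR1 had 30, 30 and 40 and BT-TPR2 had 0, 6 and 5. Scaled to the normalized library sizes, the summed counts were 40.6 times those of untreated cells in BT-TPR1 (95% exact interval 13.5 to 200) and 4 times in BT-TPR2 (1.06 to 22.3). The same ratio was 236 in BT-TR1 (80.2 to 1.15e+03) and 258 in BT-TR2 (88 to 1.26e+03). These intervals cover counting error alone, not the spread between replicates. Since the pool libraries chose the gene, the ratios and intervals are a description with no test. The order of the groups was thus both BT-TR pools together, then BT-TPR1, then BT-TPR2 and the sensitive cells, whose libraries overlapped. Between the class means the log2 difference was -4.26 ± 0.25, the largest of the 9 in size, with NCMAP next at -4.21 ± 0.24. The 4 comparisons of single pools ran from -2.54 to -5.97 for GLYATL3.

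HGD (ENSG00000113924.11, chr3:120628173-120682571, minus strand) encodes homogentisate 1,2-dioxygenase, which opens the aromatic ring during tyrosine breakdown. It had 24.8, 22.3 and 24.2 CPM in BT-TPR1 and 24.4, 22.9 and 24.8 CPM in BT-TPR2, against 7.05, 7.05 and 6.99 CPM in BT-TR1 and 9.3, 8.96 and 8.27 CPM in BT-TR2. Untreated cells had 21.6, 28.5 and 27.9 CPM. The BT-TPR pools overlapped untreated cells and each other, and both BT-TR pools lay below. From untreated cells the log2 difference was -0.13 ± 0.11 in BT-TPR1 and -0.12 ± 0.11 in BT-TPR2, against -1.89 ± 0.12 in BT-TR1 and -1.56 ± 0.11 in BT-TR2. Between the means of the classes the log2 difference was 1.60 ± 0.08.

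ANXA1 (ENSG00000135046.13, chr9:73151757-73170393, plus strand) encodes annexin A1, which binds phospholipid membranes in the presence of calcium and, once secreted, acts through formyl peptide receptors. Its level was 2.82, 3.33 and 4.1 CPM in BT-TPR1 and 1.28, 1.95 and 2.19 CPM in BT-TPR2, against 29.7, 29.1 and 33.1 CPM in BT-TR1 and 15.4, 13.6 and 13 CPM in BT-TR2. Untreated cells had 11.5, 17 and 15.6 CPM. BT-TR1 was above untreated cells and BT-TR2 overlapped them, while both BT-TPR pools were below. The log2 difference from untreated cells was -2.11 ± 0.23 in BT-TPR1 and -3.02 ± 0.24 in BT-TPR2, against 1.06 ± 0.21 in BT-TR1 and -0.07 ± 0.20 in BT-TR2. With each library corrected for GC content, BT-TR1 stood at 0.76 against untreated cells. On the log2 scale the BT-TPR mean lay -3.06 ± 0.17 from the BT-TR mean.

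PTPRM (ENSG00000173482.16, chr18:7566782-8406861, plus strand) encodes the receptor tyrosine phosphatase mu, whose outer part binds the same protein on the next cell. It had 2.36, 1.51 and 3.08 CPM in BT-TPR1 and 2.85, 2.05 and 3.07 CPM in BT-TPR2, against 13.9, 14.3 and 12.9 CPM in BT-TR1 and 10.1, 9.58 and 9.62 CPM in BT-TR2. Untreated cells had 4.51, 5.33 and 3.77 CPM. As for UGT3A2, untreated cells lay between the classes, here nearer to the BT-TPR pools. The log2 difference from untreated cells was -0.97 ± 0.22 in BT-TPR1 and -0.78 ± 0.21 in BT-TPR2, against 1.60 ± 0.20 in BT-TR1 and 1.11 ± 0.20 in BT-TR2. Its class difference was -2.23 ± 0.15.

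EFS (ENSG00000100842.12, chr14:23356402-23365752, minus strand) encodes a docking protein of the Cas family, which binds Src-family kinases such as Fyn. It had 13.9, 9.31 and 9.55 CPM in BT-TPR1 and 10.6, 8.42 and 7.71 CPM in BT-TPR2, against 2.15, 1.91 and 1.45 CPM in BT-TR1 and 4.2, 3.29 and 3.21 CPM in BT-TR2. Untreated cells had 10.2, 7.29 and 8.89 CPM. The BT-TPR pools overlapped untreated cells, and the BT-TR pools lay below them. The log2 difference from untreated cells was 0.31 ± 0.20 in BT-TPR1 and 0.02 ± 0.20 in BT-TPR2, against -2.22 ± 0.24 in BT-TR1 and -1.30 ± 0.21 in BT-TR2. Its class means differed by 1.93 ± 0.16. EFS transcripts are 62.5% G and C, the highest GC content of the 9 genes, and with each library corrected for GC content the class means differed by 1.62 and BT-TR1 lay -1.29 from untreated cells.

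NCMAP (ENSG00000184454.6, chr1:24556111-24609328, plus strand) encodes the non-compact myelin-associated protein, a small membrane protein of Schwann cells. It had 0.115, 0.692 and 0.769 CPM in BT-TPR1 and 0.582, 0.558 and 0.251 CPM in BT-TPR2, against 13.1, 14.8 and 13.2 CPM in BT-TR1 and 6.72, 5.71 and 6.28 CPM in BT-TR2. Untreated cells had 0.494, 0.517 and 0.363 CPM. Only the BT-TR pools stood above the low level that the other groups shared. Its log2 difference from untreated cells was 0.18 ± 0.45 in BT-TPR1 and 0.06 ± 0.45 in BT-TPR2, against 4.89 ± 0.34 in BT-TR1 and 3.76 ± 0.34 in BT-TR2. Its class difference was -4.21 ± 0.24.

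SLC44A5 (ENSG00000137968.16, chr1:75202131-75611116, minus strand) encodes a member of the choline transporter-like family of membrane proteins. It had 9.77, 10 and 11.1 CPM in BT-TPR1 and 12.7, 10.8 and 13.3 CPM in BT-TPR2, against 2.82, 3.92 and 1.85 CPM in BT-TR1 and 2.52, 3.66 and 3.72 CPM in BT-TR2. Untreated cells had 3.24, 4.09 and 2.99 CPM. The BT-TPR pools stood alone above all other groups, and the BT-TR pools overlapped untreated cells. The log2 difference from untreated cells was 1.58 ± 0.20 in BT-TPR1 and 1.83 ± 0.20 in BT-TPR2, against -0.23 ± 0.22 in BT-TR1 and -0.06 ± 0.21 in BT-TR2. For the class means the difference was 1.85 ± 0.15.

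**Figure D2:**
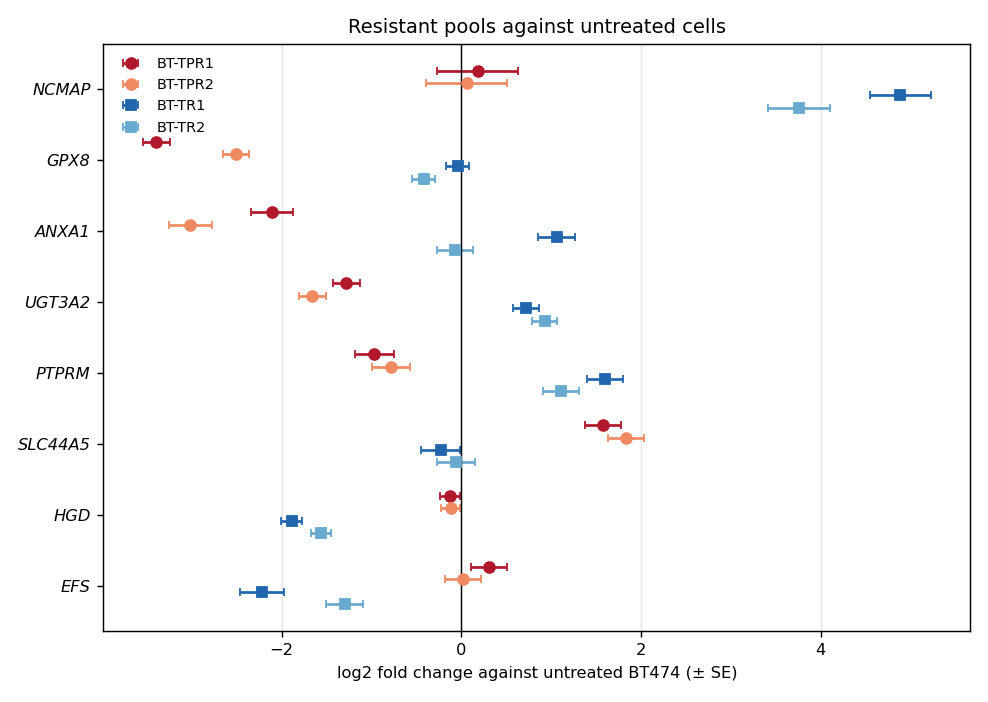
Log2 fold change of each resistant pool against untreated BT474 cells, with SE from the fit over 21 libraries; GLYATL3 is left out because untreated cells had at most 2 counts. Circles are BT-TPR pools and squares are BT-TR pools. UGT3A2 and PTPRM lie on opposite sides of 0 in the classes, GPX8 departs from 0 mainly in the BT-TPR pools, and HGD and EFS depart mainly in the BT-TR pools.

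The comparison of cells given antibody for 3 days with untreated cells was not used to choose the genes, so it was tested. Its estimate of spread comes from the same fit as the pool comparisons that chose them, so the test is not wholly independent of the choice. With both antibodies ANXA1 fell to 5.8 ± 1.94 CPM, against 14.7 ± 2.82 CPM in untreated cells, and HGD fell to 14 ± 0.654 CPM, against 26 ± 3.85 CPM (SD, n = 3 each). PTPRM rose to 7.52 ± 1.36 CPM with both antibodies, against 4.53 ± 0.781 CPM in untreated cells. GPX8 fell to 19.6 ± 1.28 CPM, against 26.2 ± 3.46 CPM in untreated cells. By edgeR's quasi-likelihood test with Benjamini-Hochberg adjustment over all tested genes, 4 of the 9 genes were called with both antibodies, against 12.4% of all tested genes. The 9 genes had to reach 5 CPM over the pools, which that share did not require. With only the groups compared in the fit, ANXA1 and HGD kept their calls and PTPRM and GPX8 lost theirs. Of the 9 genes 1 was higher and 3 were lower, against 6.39% higher and 6.02% lower of all tested genes. The median log2 fold change was -0.39 over the 8 genes with enough counts, and -0.01 over all tested genes. The summed level of the basal or myoepithelial markers also lay below that of untreated cells, without overlap, after either antibody treatment, and its part in these changes was not tested.

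Per library, ANXA1 had 4.62, 4.75 and 8.03 CPM with both antibodies, against 11.5, 17 and 15.6 CPM in untreated cells, with no overlap. The log2 fold change was -1.34 ± 0.21 (adjusted p = 0.00034), and each of 32 alternative settings kept the call. HGD had 14.4, 13.2 and 14.4 CPM with both antibodies, against 21.6, 28.5 and 27.9 CPM in untreated cells. Its log2 fold change was -0.89 ± 0.11 (adjusted p = 2.57e-05), again called under all 32 settings. For both genes the antibody-treated libraries lay wholly below the untreated ones.

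PTPRM had 9.01, 6.38 and 7.16 CPM with both antibodies, against 4.51, 5.33 and 3.77 CPM in untreated cells, again with no overlap. Its log2 fold change was 0.73 ± 0.20 (adjusted p = 0.0197). Leaving out replicate 3 of the untreated cells (adjusted p = 0.0863) or replicate 1 of the cells given both antibodies (0.0678) ended the call, as did fits with replicates 2 and 3 alone (0.0708) and with only the 2 groups fitted (0.0728). GPX8 had 19.5, 18.4 and 21 CPM with both antibodies, against 22.3, 29 and 27.2 CPM in untreated cells. The log2 fold change of GPX8 was -0.41 ± 0.13 (adjusted p = 0.0381), and the call was lost under 15 of 32 settings. Single libraries whose removal ended it were untreated replicates 2 and 3, trastuzumab replicates 1 and 2, each of the 3 libraries with both antibodies, BT-TR1 replicate 2, BT-TR2 replicates 2 and 3 and BT-TPR1 replicate 1, with adjusted p between 0.0505 and 0.165.

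The other genes did not pass the test with both antibodies. SLC44A5 had 2.86, 1.93 and 2.43 CPM with both antibodies, against 3.24, 4.09 and 2.99 CPM in untreated cells, a log2 fold change of -0.52 ± 0.22 (adjusted p = 0.124) with no overlap. EFS had a log2 fold change of -0.38 ± 0.20 (adjusted p = 0.244), UGT3A2 of -0.25 ± 0.14 (adjusted p = 0.286) and NCMAP of 0.49 ± 0.42 (adjusted p = 0.486), all with overlapping libraries. GLYATL3 had 1, 0 and 0 counts with both antibodies, 0, 1 and 0 counts with trastuzumab, and 0, 2 and 1 counts in untreated cells, which allows no comparison.

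Trastuzumab alone for 3 days changed ANXA1 among the 9 genes. It fell to 9.93, 7.18 and 9.37 CPM with trastuzumab, against 11.5, 17 and 15.6 CPM in untreated cells, a log2 fold change of -0.74 ± 0.21 (edgeR's quasi-likelihood test, adjusted p = 0.0363). This was 1 of 9 genes called, against 7.48% of all tested genes (3.71% higher and 3.78% lower), and the median log2 fold change was -0.19 over 8 of the genes and -0.02 over all tested genes. Leaving out 1 library ended the ANXA1 call for replicates 2 (adjusted p = 0.152) and 3 (0.0961) of the untreated cells, for replicates 1 (0.0575), 2 (0.158) and 3 (0.0907) of the trastuzumab group, and for BT-TR1 replicate 2 (0.053). It was also lost with library size alone (0.0558), with limma on the deposited transformed values (0.0507) and with only the 2 groups fitted (0.0958), within a range of 0.000559 to 0.158 over 32 settings. PTPRM had 6, 6.94 and 6.03 CPM with trastuzumab, against 4.51, 5.33 and 3.77 CPM in untreated cells, without overlap. It had a log2 fold change of 0.48 ± 0.20 and did not pass the test (adjusted p = 0.15). With replicate number as a block, PTPRM was called at 0.49 (adjusted p = 0.0403), and the calls among all genes numbered 4629 in place of 1321. Whether the numbers pair these libraries is not settled.

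HGD overlapped untreated cells with trastuzumab alone, at 20.9, 24.2 and 23.3 CPM, against 21.6, 28.5 and 27.9 CPM (log2 fold change -0.19 ± 0.11, adjusted p = 0.318). With the replicate block and GC content corrected in each library, HGD was called at -0.24 (adjusted p = 0.043). SLC44A5 had 2.58, 2.3 and 2.45 CPM with trastuzumab, all below untreated cells, at a log2 fold change of -0.49 ± 0.21 (adjusted p = 0.178). Leaving out GLYATL3 for want of counts, the remaining genes lay between -0.23 ± 0.13 for GPX8 and 0.29 ± 0.43 for NCMAP, with overlapping libraries, and none passed the test.

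**Figure D3:**
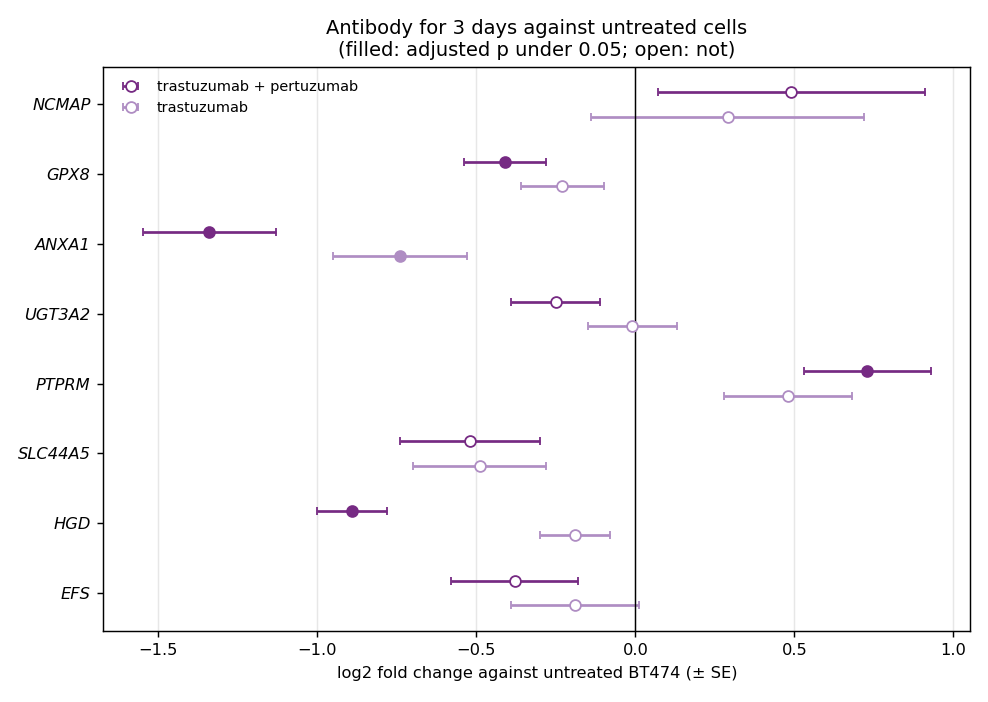
Log2 fold change after 3 days of trastuzumab plus pertuzumab or of trastuzumab, each against untreated BT474 cells, with SE from the fit over 21 libraries; GLYATL3 is left out for want of counts. Filled points had an adjusted p under 0.05 and open points did not. ANXA1 is filled in both comparisons, at -1.34 and -0.74, and HGD only with both antibodies, at -0.89 against -0.19 with trastuzumab.

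With pertuzumab added to trastuzumab, HGD was lower than with trastuzumab alone. The direct comparison of cells given both antibodies with cells given trastuzumab put HGD at 14.4, 13.2 and 14.4 CPM, against 20.9, 24.2 and 23.3 CPM with trastuzumab, with no overlap. The log2 fold change was -0.70 ± 0.11 (edgeR's quasi-likelihood test, adjusted p = 0.00197). HGD was 1 of 9 genes called in a comparison that called 0.867% of all tested genes, 0.487% as higher and 0.38% as lower. That share is 153 genes, and 388 genes were called with replicate number as a block. The call was lost under 1 of 32 settings, with only the 2 groups fitted (adjusted p = 0.058). ANXA1 had 4.62, 4.75 and 8.03 CPM with both antibodies, against 9.93, 7.18 and 9.37 CPM with trastuzumab, which overlap. Its log2 fold change of -0.60 ± 0.21 did not pass the test (adjusted p = 0.446), and with the block and the GC correction it was -0.65 and called (adjusted p = 0.0199). The median was -0.18 over 8 of the genes and -0.00 over all tested genes.

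The genes called after 3 days of antibody stood on different sides of untreated cells in the pools. ANXA1 was below untreated cells after either antibody treatment and in both BT-TPR pools, at -1.34 with both antibodies, -2.11 in BT-TPR1 and -3.02 in BT-TPR2. In the BT-TR pools ANXA1 stood at 1.06 in BT-TR1 and -0.07 in BT-TR2. GPX8 was below untreated cells with both antibodies (-0.41) and in the BT-TPR pools (-3.40 in BT-TPR1 and -2.51 in BT-TPR2). In the BT-TR pools GPX8 stood at -0.04 in BT-TR1 and -0.42 in BT-TR2. HGD was below untreated cells with both antibodies (-0.89) and in the BT-TR pools (-1.89 in BT-TR1 and -1.56 in BT-TR2), but not clear of them in the BT-TPR pools. PTPRM was above untreated cells with both antibodies (0.73) and in the BT-TR pools (1.60 in BT-TR1 and 1.11 in BT-TR2) but below them in the BT-TPR pools. These comparisons share the untreated libraries, and no relation between them was tested.

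The 2 pools of a class also differed from each other for several of the genes. The ranking that chose the genes used the smallest difference between pools of different classes, which is smaller the further apart the pools of 1 class lie, so the differences within a class are given as a description with no test. Over all tested genes 3.45% were called between BT-TPR2 and BT-TPR1, and 17.7% between BT-TR2 and BT-TR1. For BT-TPR2 against BT-TPR1 that is 609 genes, and 2119 with replicate number as a block.

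Between the dual-resistant pools, GLYATL3 had 0, 0.279 and 0.313 CPM in BT-TPR2, against 1.72, 1.89 and 2.56 CPM in BT-TPR1, a log2 difference of -3.31 ± 0.45. GPX8 had 4.65, 4.09 and 5.01 CPM in BT-TPR2, against 2.36, 2.89 and 2.18 CPM in BT-TPR1, a log2 difference of 0.88 ± 0.16. ANXA1 had 1.28, 1.95 and 2.19 CPM in BT-TPR2, against 2.82, 3.33 and 4.1 CPM in BT-TPR1, at -0.91 ± 0.26. In these genes and in UGT3A2, at -0.38 ± 0.16, the libraries of the pools did not overlap. HGD stood closest, at 0.01 ± 0.11, and NCMAP, PTPRM, SLC44A5 and EFS had overlapping libraries as well.

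Between the trastuzumab-resistant pools, NCMAP had 6.72, 5.71 and 6.28 CPM in BT-TR2, against 13.1, 14.8 and 13.2 CPM in BT-TR1, a log2 difference of -1.13 ± 0.26. ANXA1 had 15.4, 13.6 and 13 CPM in BT-TR2, against 29.7, 29.1 and 33.1 CPM in BT-TR1, at -1.13 ± 0.21. EFS had 4.2, 3.29 and 3.21 CPM in BT-TR2, against 2.15, 1.91 and 1.45 CPM in BT-TR1, at 0.92 ± 0.25. NCMAP and ANXA1 were thus lower and EFS higher in BT-TR2, without overlap. GPX8 (-0.38 ± 0.13) and PTPRM (-0.49 ± 0.19) were also lower in BT-TR2 and HGD (0.33 ± 0.12) was higher, again with no overlap. With each library corrected for GC content the difference was 0.20 for EFS, -0.12 for GPX8, -0.82 for ANXA1, -0.68 for PTPRM and 0.37 for HGD. GLYATL3, UGT3A2 and SLC44A5 had overlapping libraries in these pools.

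Relatives of the 9 genes mostly did not separate the classes. From 11 lists of the same families and pathways, 74 genes were tested, and 3 of them (1 higher and 2 lower) had an adjusted p under 0.05 with 1 sign in all 4 comparisons of a BT-TPR with a BT-TR pool. That is 4.05% of the list genes, against 2.4% of all tested genes (0.55% higher and 1.85% lower). CDH2, the N-cadherin gene, averaged 6.78 ± 0.923 CPM in BT-TPR1 and 9.3 ± 1.35 CPM in BT-TPR2, against 2 ± 0.68 CPM in BT-TR1 and 3.48 ± 0.466 CPM in BT-TR2 (SD, n = 3 each). The class means differed by 1.58 ± 0.14 (largest of 4 adjusted p by edgeR = 0.00311), and all 4 pools were below the 22.6 ± 2.14 CPM of untreated cells. ANXA3, another calcium-dependent membrane-binding annexin, averaged 29.1 ± 2.05 CPM in BT-TPR1 and 30 ± 2.62 CPM in BT-TPR2, against 53 ± 2.72 CPM in BT-TR1 and 45.7 ± 3.8 CPM in BT-TR2. The class means differed by -0.74 ± 0.08 (largest of 4 adjusted p = 0.00235). UGT2B17, also called as lower, averaged 0 CPM in BT-TPR1 and 0.0209 CPM in BT-TPR2, against 0.511 CPM in BT-TR1 and 0.557 CPM in BT-TR2. It has near-identical paralogs between which reads could be split, so this value is uncertain.

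Of the annexins 1 of 8 tested genes was called, of the UDP-glycosyltransferases 1 of 2, and of cadherins and catenins 1 of 7. None was called of the 12 glutathione peroxidase and thiol oxidation genes, the 13 Cas family genes and partners, the 8 receptor tyrosine phosphatases and the 8 choline genes. The same held for the 7 peripheral myelin genes, the 5 genes of tyrosine and phenylalanine breakdown, the 3 annexin A1 receptors and partners and the 1 glycine N-acyltransferase tested. Over all tested genes the median class difference on the log2 scale was 0.01. By list it was -0.13 for annexins, -0.35 for annexin A1 receptors and partners, -0.16 for glutathione peroxidases and thiol oxidation, -0.05 for phosphatases, and 0.05 for cadherins and catenins. For choline genes it was -0.13, for tyrosine and phenylalanine breakdown -0.04, for the Cas family 0.06 and for peripheral myelin -0.20. With 2 tested genes or fewer, UDP-glycosyltransferases stood at -2.56 and glycine N-acyltransferases at -0.79.

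With both antibodies for 3 days, genes of several of these lists changed. Of 5 tested genes of tyrosine and phenylalanine breakdown, 2 rose and none fell, while HGD fell. TAT, the aminotransferase that starts tyrosine breakdown, rose to 0.737 ± 0.376 CPM with both antibodies, against 0.222 ± 0.0941 CPM in untreated cells. The log2 fold change of TAT was 1.71 ± 0.36 (edgeR's quasi-likelihood test, adjusted p = 0.00366). In untreated cells TAT lay near the floor of 3 counts, worth 0.136 to 0.165 CPM there. Its log2 fold change ran from 0.76 to 2.08 over 32 settings, which all kept the call. Of 7 cadherins and catenins, 3 fell and none rose, while PTPRM rose. Among these, CDH2 fell to 8.92 ± 1.52 CPM, against 22.6 ± 2.14 CPM in untreated cells, a log2 fold change of -1.34 ± 0.17 (adjusted p = 4.12e-05). Of 12 glutathione peroxidase and thiol oxidation genes, 1 rose and 2 fell. PDIA4, a protein disulfide isomerase, fell to 262 ± 11.6 CPM with both antibodies, against 384 ± 17.6 CPM in untreated cells, at -0.55 ± 0.12 (adjusted p = 0.00445). Of 8 annexins 1 rose and none fell, of 8 receptor tyrosine phosphatases 1 rose and 1 fell, of 8 choline genes none rose and 2 fell, and of 13 Cas family genes none was called. The shares of all tested genes were 6.39% higher and 6.02% lower. TAT and PDIA4 were picked for mention after their values were seen.

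Genes next to the 9 on their chromosomes were compared in the same way. Of 54 tested neighbours, the 3 nearest on either side of each gene, 3 were called lower in the BT-TPR pools and none higher (5.56%, against 2.4% of all tested genes). CRISP3, a cysteine-rich secretory protein gene 200 kb from GLYATL3, had a class difference of -2.26 ± 0.22 on the log2 scale, the same sign as GLYATL3. ALDH1A1, a retinaldehyde dehydrogenase gene 71 kb from ANXA1, had -1.34 ± 0.11, and its call was lost without BT-TPR1 replicate 1 (largest of 4 adjusted p by edgeR = 0.065), with no filter (0.0549) and with library size alone (0.0647). FSTL1, a secreted follistatin-like gene 177 kb from HGD, had -1.51 ± 0.11, the opposite sign to HGD at 1.60 ± 0.08. Over the 54 neighbours the difference ran from -2.26 to 1.19 with a median of -0.06. The 6 neighbours of GPX8 lay between -0.40 and -0.07, against -2.73 for GPX8.

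**Figure D4:**
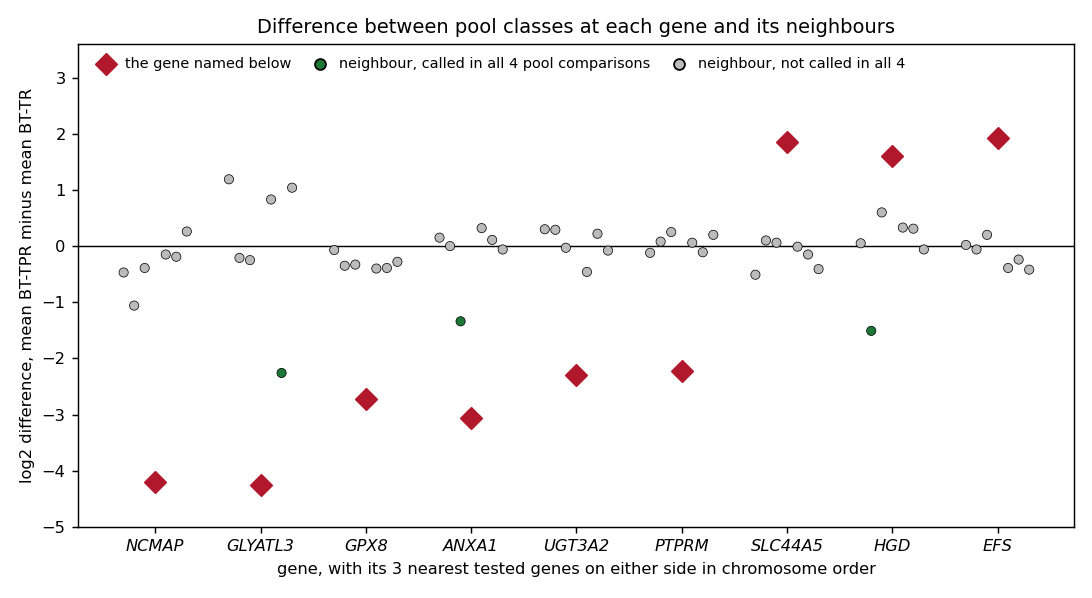
Log2 difference between the mean of the BT-TPR pools and the mean of the BT-TR pools for the 9 genes (diamonds) and for their 3 nearest tested genes on either side (circles, in chromosome order, not to scale). Green circles were called in all 4 comparisons of pools. The 6 genes with lower levels lie between -4.26 and -2.23 and the 3 with higher levels between 1.60 and 1.93, the neighbours lie between -2.26 and 1.19, and CRISP3 near GLYATL3, ALDH1A1 near ANXA1 and FSTL1 near HGD are the called neighbours.

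Genes with the most similar level over the 21 libraries were found by Pearson's r of log2 CPM among 11368 genes with at least 5 CPM, as a description. The libraries share pools and the class difference that chose the 9 genes, so r is not independent of that choice. For NCMAP they were DKK1, a secreted Wnt antagonist (r = 0.925), and NAV1 (0.922). DKK1 averaged 14.3 CPM in BT-TPR1 and 7.82 CPM in BT-TPR2, against 133 CPM in BT-TR1, 42.1 CPM in BT-TR2 and 14.4 CPM in untreated cells. GLYATL3 was most like OAT, ornithine aminotransferase (0.960), and SCGB1D2, a secretoglobin (0.956). GPX8 was most like AJUBA, a LIM-domain adaptor protein (0.940), and MID1 (0.939), and UGT3A2 like DNAJC22 (0.937) and AJUBA (0.918). ANXA1 was most like NKILA (0.923) and TWSG1 (0.917), and PTPRM like LIPH (0.935) and TSPAN6 (0.920).

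Among the genes higher in the BT-TPR pools, SLC44A5 was most like HDAC1 (r = 0.918) and C1orf174 (0.895). HGD was most like IRS1, the insulin receptor substrate (0.915), and EFS (0.909), another of the 9 genes. EFS was most like NINL (0.948) and EHMT1 (0.947). IRS1 averaged 30.6 CPM in BT-TPR1 and 32.5 CPM in BT-TPR2, against 14.2 CPM in BT-TR1, 20.7 CPM in BT-TR2 and 36.1 CPM in untreated cells, the same placing of untreated cells beside the BT-TPR pools as for HGD.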

How the data were processed

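The authors deposited raw read counts per gene, which were used for every comparison, and variance-stabilized values on a log2-like scale, which the authors deposited beside them and which were used for an alternative. Per the submitters' processing notes, Bowtie2, featureCounts, DESeq2 and build hg38 were used; versions and strandedness are not given in the sources used here. Reads of overlapping genes on opposite strands, and of near-identical paralogs, may therefore be split between genes.

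edgeR 4.0.16 in R 4.3.3 was run on the counts, with TMM, filterByExpr (at least 10 counts in a group's worth of libraries and 15 in total), glmQLFit and glmQLFTest. One model of the 7 groups covered the 21 libraries, leaving 14 residual degrees of freedom. Benjamini-Hochberg adjustment ran over 17650 genes, with calls at an adjusted p under 0.05. The script was tested on simulated data. CPM are counts scaled to the TMM-normalized library size, with SD over 3 libraries; log2 fold changes carry the SE of the fit. Tests of the 9 genes between pools of 1 class, which had been planned, are not given, since the ranking that chose the genes also depends on those differences. The class difference is the mean of the BT-TPR pools minus the mean of the BT-TR pools. A shared call needed an adjusted p under 0.05 in all 4 comparisons of a BT-TPR with a BT-TR pool, with 1 sign.

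The genes, their lists of relatives and the tests were chosen with earlier results of these data known. Named were the 9 genes, the relatives and the 3 tested neighbours on either side with a shared call, and for each gene the 2 genes with the highest Pearson r of log2 CPM (prior count 2). Positions came from GENCODE 29 on hg38 and promoters from RefSeq on GRCh38.p14, which matched 8 of 9 genes (HGD not matched).

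The chi-square per degree of freedom between 2 replicates of a group was 5.85 to 83.6, where counting error gives about 1, so replicate spread set the precision and no libraries were treated as duplicates. Deviations of libraries with the same replicate number correlated above 0.1 in every pair for 3 comparisons. These were trastuzumab against untreated (0.382 to 0.69), both antibodies against trastuzumab (0.263 to 0.792) and BT-TPR2 against BT-TPR1 (0.691 to 0.858). The drift of replicate 1 with GC content, present in every group, can raise these correlations by itself. The check thus does not show that the numbers pair libraries. For both antibodies against untreated the correlations were 0.763, 0.00614 and 0.642 in replicates 1, 2 and 3. For BT-TR2 against BT-TR1 they were 0.803, 0.0604 and 0.659. Replicate 2 thus fell short in both, and whether the numbers pair libraries is not settled in any of these comparisons. The results were recomputed without a filter, with a stricter one (1 CPM in 3 libraries and 10 counts in total), with RLE, library size alone, DESeq2 1.42.0, limma 3.58.1 on the deposited log2-scale values, only the groups compared, the replicate block, replicates 2 and 3 alone, and leaving each library out. A GC correction of each library (spline, 5 degrees of freedom), alone and with the block, was chosen after seeing the data.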

Additional observations from a re-analysis of the deposited data

Results flagged for a closer look

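1 result stood out because the antibody treatments differed by the test of the difference itself (edgeR's quasi-likelihood test). HGD differed by -0.70 on the log2 scale between cells given both antibodies and cells given trastuzumab. No group had the 4 libraries that a check for a single outlying library needs.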

How the results depend on the processing

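Counts of called genes over all genes moved by more than 1.5 times under some settings, and the cause was not tested. With only the groups compared they were 381 for trastuzumab against untreated (1321 in the fit over all groups), 896 for both antibodies against untreated (2190), 55 for both antibodies against trastuzumab (153), 197 for BT-TPR2 against BT-TPR1 (609) and 1274 for BT-TR2 against BT-TR1 (3129). With the replicate block they were 4629, 5750, 388, 2119 and 7555 in the same order, and 871 for the shared call of the BT-TPR against the BT-TR pools (424). With replicates 2 and 3 alone they were 2472, 4008 and 5307 for trastuzumab against untreated, both antibodies against untreated and BT-TR2 against BT-TR1. With the GC correction they were 2914, 3832, 255, 1412, 1666 and, for the shared call, 736; with this correction and the block they were 4964, 5819, 486, 2778 and, for the shared call, 1152. Leaving out each library gave 597 to 1412, 1104 to 2405, 82 to 159, 351 to 659 and 534 to 4407 calls in these 5 comparisons, and 304 to 426 shared calls. The lowest of these came without trastuzumab replicate 3, both antibodies replicate 3, trastuzumab replicate 3 (and equally both antibodies replicate 1), BT-TPR1 replicate 1, BT-TR2 replicate 1 and, for the shared call, BT-TR2 replicate 3.

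GLYATL3 was left out of the recomputed tests for want of counts. Of 768 values of the other genes under alternative settings in tested comparisons, 718 kept direction and call, 29 lost a call, 6 gained one and 15 changed sign. Every change of sign was in a value that no setting called. UGT3A2 with trastuzumab (-0.01) was 0.00 with RLE or DESeq2, 0.01 with only the groups compared or replicates 2 and 3 alone, and -0.06 to 0.10 with a library left out. EFS with trastuzumab (-0.19) was 0.07 with the GC correction, with or without the block. With a library left out, both antibodies against trastuzumab ranged from -0.18 to 0.42 for NCMAP and from -0.15 to 0.11 for SLC44A5. With both antibodies against untreated, where the correlation fell short in replicate 2 only, the block gained EFS (-0.38, adjusted p by edgeR = 0.0132). Over 32 settings EFS ran from -0.52 to -0.02 there, with adjusted p from 0.0132 to 0.947. The block with the GC correction gained UGT3A2 (-0.31, 0.035) and SLC44A5 (-0.54, 0.0413) in that comparison. In the other 2 tested comparisons the block alone changed the call of PTPRM with trastuzumab only. Of 1887 described values, 39 moved by more than the spread between replicates, most of them with limma on the variance-stabilized values or with the GC correction. With limma the class difference of NCMAP was -3.11 and of GLYATL3 -3.19, and GLYATL3 stood at -1.91 between BT-TPR2 and BT-TPR1. Library size alone shifted the median of all genes by 0.14 in BT-TPR1 against untreated. Depth limits NCMAP and GLYATL3, which lay near or under the floor of 3 counts in several groups.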
